A study of Mus musculus with 9 samples.

Results

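The transporters described here are the members of the solute carrier families Slc1, Slc3, Slc6, Slc7, Slc36, Slc38 and Slc43, the families that hold most of the amino acid carriers of the plasma membrane and the lysosome. They were chosen by gene symbol alone, from the Ensembl identifier of each row, and 49 of the 20655 genes in the tables carried such a symbol. The annotation held 12 more symbols of the same form, which were not analysed here. Inguinal and axillary white fat was taken from C57BL/6 mice aged 12 days, male and female mixed, and the labels name no other allele and no treatment. Flow cytometry separated them into DPP4+, ICAM1+ and CD142+ cells, and 3 libraries of messenger RNA were sequenced from each population, 9 in all. The sorted surface proteins are a peptidase (DPP4), an adhesion molecule (ICAM1) and tissue factor (CD142, the product of F3). Whether the 3 libraries came from different animals, or from pools of them, is not stated, so the errors below are those of libraries and may be technical.

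Amino acid transporters bring into the cell the building blocks of protein, which a fibroblast progenitor in growing fat needs for its extracellular matrix as well as for its own growth. Some carriers exchange 1 amino acid for another across the membrane, while others use the sodium or proton gradient to accumulate their substrate. Several light chains of the Slc7 family reach the cell surface only when bound to a heavy chain of the Slc3 family. A fall in amino acids raises the transcription of many of these genes through the transcription factor ATF4, and lysosomal members take part in the signal from amino acids to the mTORC1 kinase.

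Each gene had 1 mean normalised count over all 9 libraries and, for each pair of populations, a log2 fold change with its standard error (SE) and a Benjamini-Hochberg adjusted p of the authors' Wald test. Where values against DPP4+ come in pairs with no population named, the first is that of ICAM1+ and the second that of CD142+ cells. A gene was taken as changed when that adjusted p was below 0.05. Levels per population were fitted from the mean and the fold changes, so that they carry no error of their own. Single libraries were not used here. The sort showed in the messenger RNA. Dpp4 was lower in ICAM1+ than in DPP4+ cells with a log2 fold change of -5.93 ± 0.15, Icam1 was higher by 2.78 ± 0.15, and F3 was higher in CD142+ than in DPP4+ cells by 2.60 ± 0.13. Icam1 was also higher in CD142+ than in DPP4+ cells by 2.60 ± 0.15 and did not pass between ICAM1+ and CD142+ cells.

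More transporters changed against DPP4+ than between ICAM1+ and CD142+ cells, and the same order held over all genes. In ICAM1+ against DPP4+ cells, 15 of the 45 transporters with an adjusted p changed (33.3%), where 24.4% of all genes tested did. Of these, 7 were higher and 8 lower in ICAM1+ cells, against 12.4% and 12.0% of all genes. In CD142+ against DPP4+ cells, 11 of 45 changed (24.4%), where 19.0% of all genes did. Here 4 were higher and 7 lower in CD142+ cells, beside 10.1% and 8.91% of all genes. Between ICAM1+ and CD142+ cells, 2 of 38 changed (5.26%), where 9.05% of all genes did, 1 higher (3.77% of all genes) and 1 lower (5.28%) in ICAM1+ cells. An unadjusted p below 0.05 was reached by 20, 18 and 10 of the 49 transporters in the 3 comparisons. The share of all genes at that limit was not computed, so these counts have no background beside them.

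The shares depended on abundance. Among the 19 transporters with a mean of at least 100, 9 changed in ICAM1+ against DPP4+ (37.1% of all genes of that abundance), 8 in CD142+ against DPP4+ (28.5%) and 2 in ICAM1+ against CD142+ (13.4%). Over the tested transporters the median absolute log2 fold change was 0.59, 0.51 and 0.31 in the 3 comparisons, beside 0.43, 0.34 and 0.25 over all genes tested. The signed medians of the transporters were -0.04, -0.05 and 0.03, beside 0.02, -0.01 and -0.00094 over all genes.

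Slc1a4, Slc6a6, Slc7a1, Slc7a7, Slc7a10 and Slc38a4, 6 of the 45 transporters tested in both comparisons, were lower than in DPP4+ in both ICAM1+ and CD142+ cells, as were 7.13% of all genes. Slc1a3, Slc7a2, Slc38a2 and Slc43a1, 4 of 45, were higher in both, as were 7.34% of all genes. The comparisons share their DPP4+ libraries, so calls in both are not independent. Slc6a17 and Slc43a3 set ICAM1+ cells apart from both other populations. Slc6a2, Slc36a2 and Slc43a2 passed only in ICAM1+ against DPP4+, and Slc38a7 only in CD142+ against DPP4+. The remaining 33 passed in no comparison. Slc6a2, Slc7a2, Slc7a7, Slc7a10, Slc36a2 and Slc43a2 had means below 100 and lie outside the rule for named genes, as do the members given below that passed in no comparison and had means below 1000, apart from Slc36a4.

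**Figure D1:**
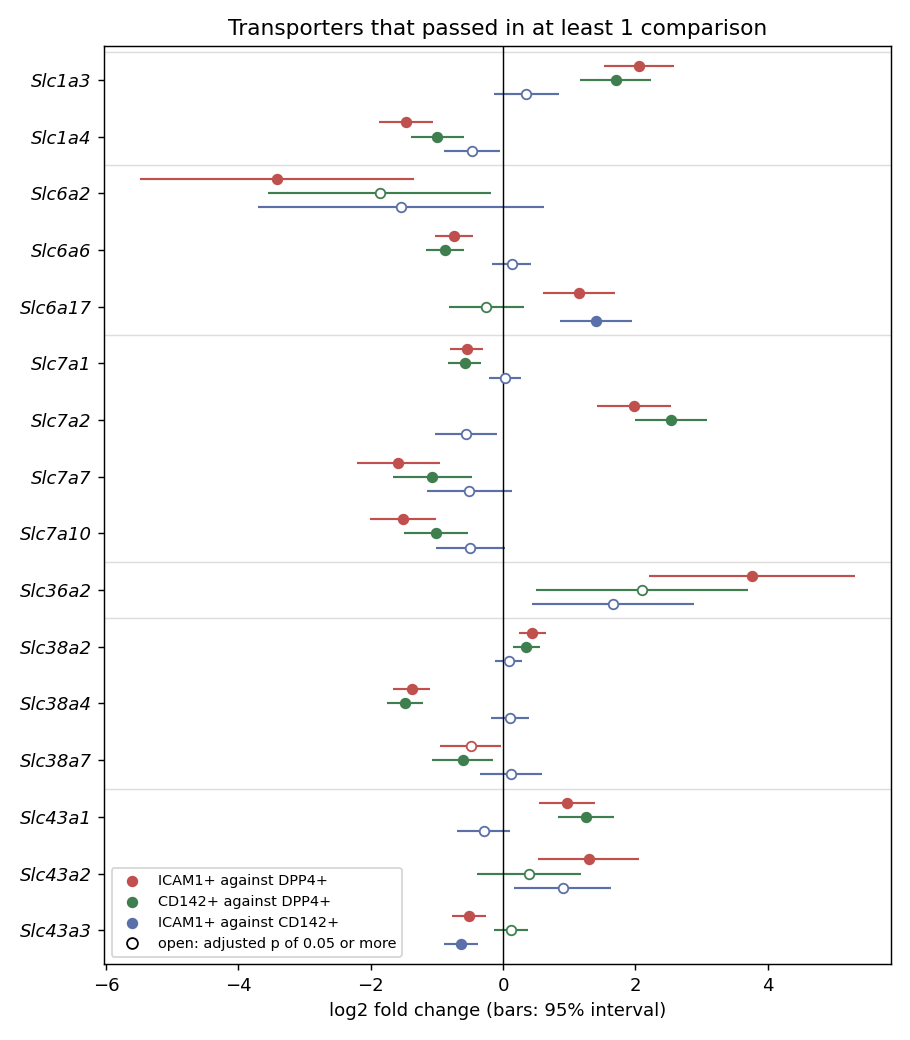
Log2 fold change (x axis) with its 95% interval for the 16 transporters (y axis, by family) that passed in at least 1 of the 3 pairwise comparisons, with filled points where the adjusted p was below 0.05 and open points elsewhere. Slc1a3 at 2.05 and 1.70 and Slc7a2 at 1.98 and 2.54 lie to the right for both comparisons against DPP4+, and only Slc6a17 and Slc43a3 have a filled point for ICAM1+ against CD142+.

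The SE set what could be seen. It ran from 0.10 to 0.13 for the 6 transporters with means of at least 1000 and from 0.13 to 0.29 for the 13 with means from 100 to 1000. For the 12 with means from 10 to 100 it was 0.24 to 0.82. The 18 members with means below 10 had SEs of 0.69 to 2.15, and of them only Slc6a2 passed. They included Slc1a1, Slc1a6, Slc1a7, Slc6a2, Slc6a4, Slc6a7, Slc6a11, Slc6a12, Slc6a13, Slc6a15, Slc6a21, Slc7a3, Slc7a4, Slc7a14, Slc7a15, Slc38a3 and Slc38a11, many of them carriers of neurotransmitters or of kidney and brain. The other 17 did not pass, and with such SEs that does not show that their levels were alike. Among them Slc6a4, Slc6a12, Slc6a21 and Slc7a15 had no adjusted p in any comparison. Of those with an adjusted p, Slc38a11 came nearest, at 3.51 ± 1.41 in ICAM1+ against DPP4+ (adjusted p = 0.0524). Slc7a15 was at -4.92 ± 1.92 in CD142+ against DPP4+ (unadjusted p of the Wald test 0.0105).

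**Figure D2:**
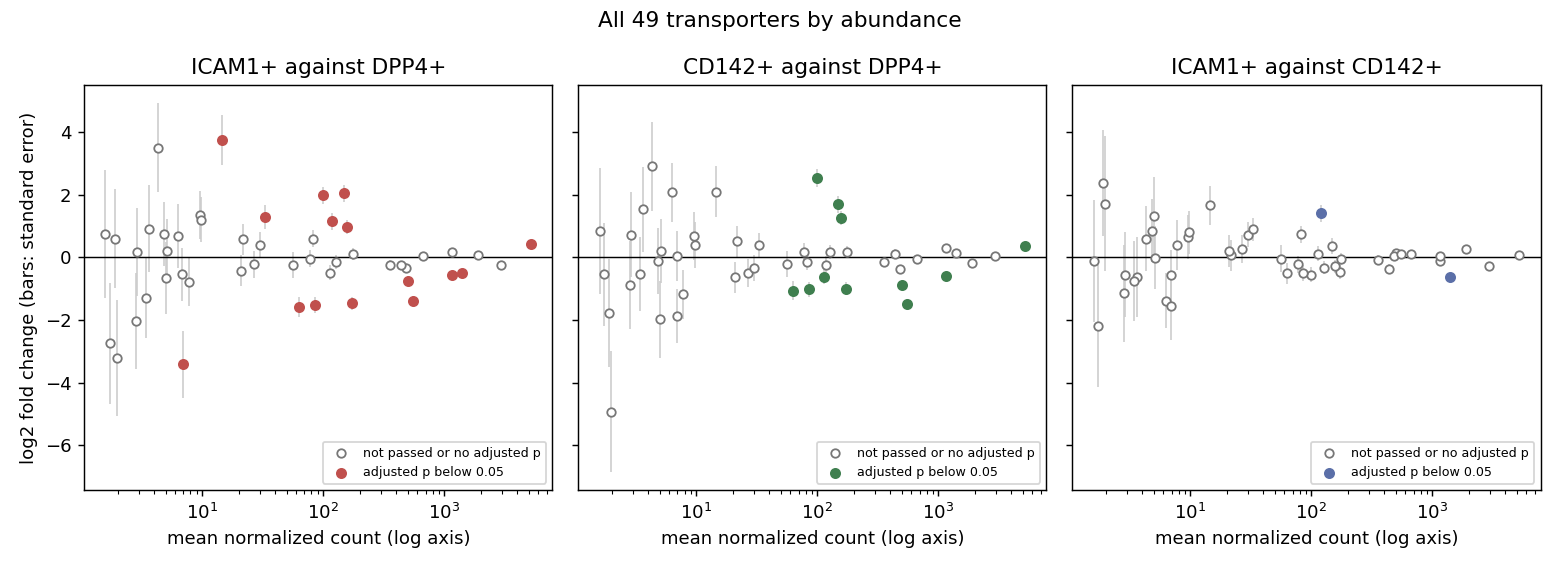
Log2 fold change with its SE (y axis) against the mean normalised count over all 9 libraries (x axis, log scale) for the 49 transporters, with 1 panel for each pairwise comparison and filled points where the adjusted p was below 0.05. Bars are long below a mean of 10, where 1 of 18 members passed, and the right panel holds 2 filled points against 15 in the left one.

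Per kilobase of exon, the same few transporters led in each population. Slc38a2 was first in all 3, with a fitted level per kb of 488 in DPP4+, 662 in ICAM1+ and 623 in CD142+ cells. Slc38a10, Slc1a5, Slc43a3 and Slc3a2 took the next 4 places everywhere, with levels per kb between 238 and 493. The order among Slc38a10, Slc1a5 and Slc38a2 in DPP4+ cells (477, 467 and 488) cannot be separated, since levels carry no error. Slc38a4 was sixth in DPP4+ cells at 224 per kb and ninth in the other populations, at 86.0 in ICAM1+ and 80.1 in CD142+ cells. Together the 49 transporters held 0.191%, 0.222% and 0.205% of the gene counts of DPP4+, ICAM1+ and CD142+ cells. Their summed fitted levels were 18729, 18179 and 18611 normalised counts, so the larger share in ICAM1+ cells came with the lowest sum.

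**Figure D3:**
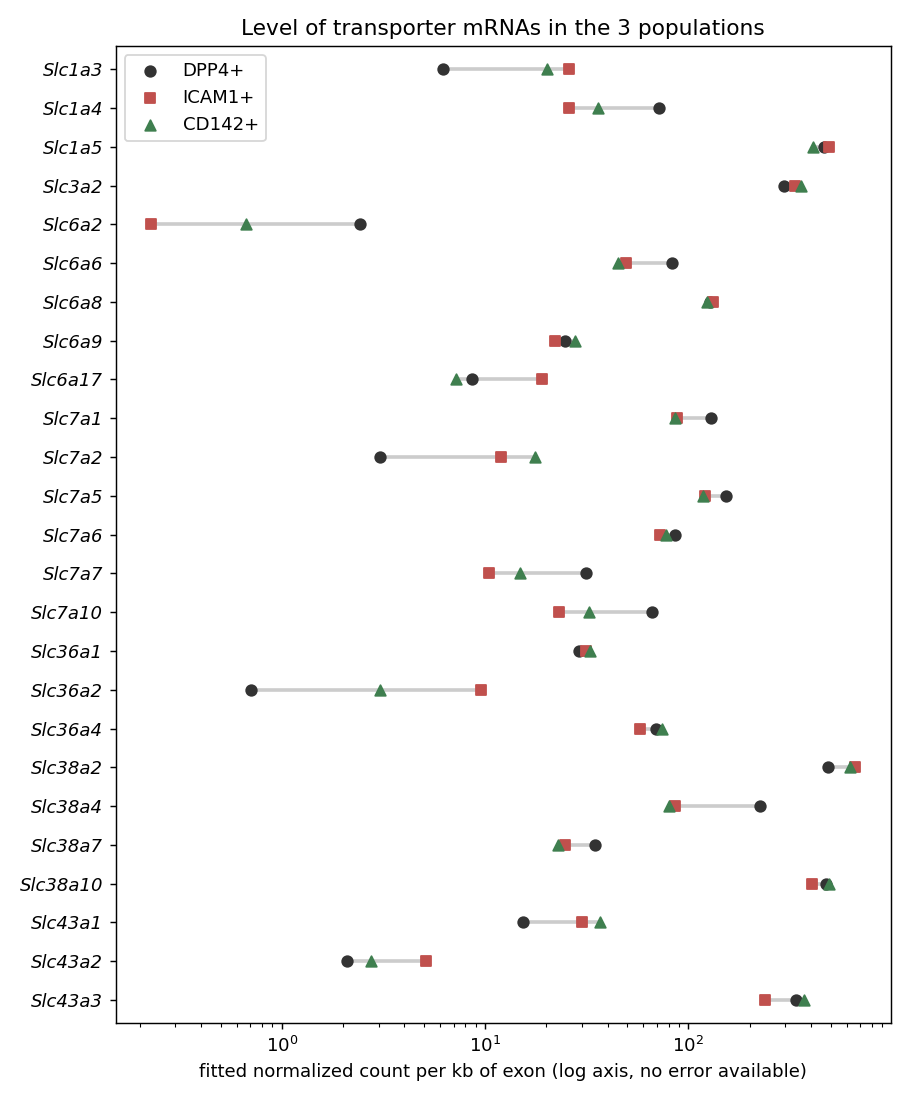
Fitted normalised count per kilobase of exon (x axis, log scale, no error available) in DPP4+, ICAM1+ and CD142+ cells for the 25 transporters that changed in a comparison or had a mean of 100 or more. Slc38a2 lies furthest right in each population, and Slc38a4 spans 80.1 to 224.

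The Slc38 family holds sodium-coupled carriers of small neutral amino acids such as glutamine and alanine. Of its 9 members, Slc38a2 was higher and Slc38a4 lower in both comparisons against DPP4+. Slc38a2 (ENSMUSG00000022462.6, chr15:96687392-96699730, minus strand, GRCm38), whose product carries alanine, serine and glutamine and is induced when amino acids are scarce, had fitted levels of 4317 normalised counts in DPP4+, 5849 in ICAM1+ and 5505 in CD142+ cells. It was higher than in DPP4+ by 0.44 ± 0.10 in ICAM1+ (adjusted p = 0.000234) and by 0.35 ± 0.10 in CD142+ (adjusted p = 0.00587). Slc38a4 (ENSMUSG00000022464.13, chr15:96994820-97055956, minus strand), an imprinted gene for a carrier of neutral and cationic amino acids, stood at 955 in DPP4+, 367 in ICAM1+ and 341 in CD142+ cells. Its log2 fold changes against DPP4+ were -1.38 ± 0.14 (adjusted p = 5.87e-21) and -1.48 ± 0.14 (adjusted p = 3.21e-24), and ICAM1+ and CD142+ cells differed by 0.10 with a 95% interval of -0.18 to 0.39. Per kb, Slc38a2 exceeded Slc38a4 by 2.18 times in DPP4+ cells and by 7.69 and 7.77 times in ICAM1+ and CD142+ cells.

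Slc38a7 (ENSMUSG00000036534.6, chr8:95835920-95853539, minus strand), which exports glutamine from the lysosome, had fitted levels of 144 in DPP4+, 103 in ICAM1+ and 94.1 in CD142+ cells. It was lower in CD142+ than in DPP4+ cells, at -0.61 ± 0.23 (adjusted p = 0.0471), a call lost when p was adjusted over every gene (0.0557) or when fold changes were centred on their median (0.0941). In ICAM1+ cells the difference was -0.49 ± 0.24 (adjusted p = 0.120). Slc38a10, with a mean of 2936, passed in no comparison, and its 95% intervals were -0.45 to -0.01 for ICAM1+ and -0.18 to 0.26 for CD142+ against DPP4+. Slc38a9, the lysosomal arginine sensor upstream of mTORC1, had a mean of 77.3 and differences of -0.04 ± 0.27 and 0.18 ± 0.27. Slc38a1 and Slc38a6 had means of 20.8 and 30.0 and did not pass.

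The Slc1 family joins carriers of glutamate and aspartate to exchangers of alanine, serine, cysteine and glutamine. Slc1a3 (ENSMUSG00000005360.14, chr15:8634124-8710764, minus strand), the glutamate and aspartate carrier best known from glia, had fitted levels of 53.1 in DPP4+, 220.2 in ICAM1+ and 172 in CD142+ cells. It was higher by 2.05 ± 0.27 in ICAM1+ (4.14-fold, adjusted p = 8.79e-13) and by 1.70 ± 0.27 in CD142+ (3.25-fold, adjusted p = 7.63e-09). Slc1a4 (ENSMUSG00000020142.12, chr11:20302180-20332713, minus strand), an exchanger of serine and alanine, ran the other way, at 280.3 in DPP4+, 101 in ICAM1+ and 140.4 in CD142+ cells. Its differences from DPP4+ were -1.47 ± 0.21 (adjusted p = 7.87e-11) and -0.998 ± 0.20 (adjusted p = 1.45e-05). Neither gene passed between ICAM1+ and CD142+ cells, where Slc1a4 differed by -0.47 with an interval of -0.89 to -0.05.

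Slc1a5, the main glutamine exchanger of many growing cells and the closest relative of Slc1a4, had a mean of 1903 and passed in no comparison. The intervals of its difference from DPP4+ were -0.17 to 0.33 in ICAM1+ and -0.44 to 0.06 in CD142+ cells. Per kb its level exceeded that of Slc1a4 by 6.53 times in DPP4+, 19.1 times in ICAM1+ and 11.4 times in CD142+ cells. Slc1a2 had a mean of 56.2 and did not pass.

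Heavy chains of the Slc3 family showed no called change. Slc3a2, the CD98 heavy chain, had fitted levels of 1037 in DPP4+, 1176 in ICAM1+ and 1266 in CD142+ cells, and its differences from DPP4+ were 0.18 ± 0.13 (adjusted p = 0.330) and 0.29 ± 0.13 (adjusted p = 0.0959). With fold changes centred on their median, the difference in CD142+ cells was 0.34 and passed (adjusted p = 0.0434). Slc3a1, the heavy chain of the kidney cystine carrier, had a mean of 27.0.

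Among the light chains that pair with Slc3a2, 2 of 6 were lower in both populations (7.13% of all genes) and none was higher in both (7.34%). Slc7a7, which exports cationic amino acids in exchange for neutral ones and sodium, had fitted levels of 104 in DPP4+, 34.7 in ICAM1+ and 49.5 in CD142+ cells. Its differences from DPP4+ were -1.58 ± 0.32 (adjusted p = 7.27e-06) and -1.07 ± 0.30 (adjusted p = 0.00338). Exons of Oxa1l on the other strand, a gene with a mean of 200 that did not pass, cover 7.0% of the exon bases of Slc7a7. Slc7a10, a carrier of glycine, serine and alanine known as a surface protein of white adipocytes, stood at 139 in DPP4+, 48.8 in ICAM1+ and 68.8 in CD142+ cells, with differences of -1.51 ± 0.26 (adjusted p = 6.88e-08) and -1.02 ± 0.25 (adjusted p = 0.000363). Of its exon bases, 17.9% lie under exons of Lrp3 on the other strand, a gene with a mean of 513 that was itself lower, at -0.90 and -0.64. Which strand was counted is not stated, so how reads from those bases were assigned is not known.

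The other light chains did not pass. Slc7a5, the leucine and large neutral amino acid exchanger, had a mean of 483, differences of -0.34 ± 0.15 (adjusted p = 0.0805) and -0.38 ± 0.15 (adjusted p = 0.0570), and intervals of -0.63 to -0.05 and -0.67 to -0.09. Slc7a6 had a mean of 359 and intervals of -0.54 to 0.07 and -0.45 to 0.16. Slc7a8 was measured at 0.59 ± 0.27 in ICAM1+ against DPP4+ (adjusted p = 0.0961) and 0.74 ± 0.27 against CD142+ (adjusted p = 0.0632). Slc7a11, the cystine and glutamate exchanger, had a mean of 21.8 and intervals from -0.42 to 1.57 and from -0.47 to 1.5. Summed per kb, the 6 light chains stood at 351 in DPP4+, 251 in ICAM1+ and 258 in CD142+ cells, so that the level of Slc3a2 was 0.837, 1.33 and 1.39 times their sum. Slc7a5 made up 43.5%, 48.2% and 45.7% of that sum.

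Cationic amino acid carriers of the Slc7 family, which need no heavy chain, split between their chief members. Slc7a1 (ENSMUSG00000041313.14, chr5:148327410-148399904, minus strand), the widespread arginine and lysine carrier, had fitted levels of 1483 in DPP4+, 1010.2 in ICAM1+ and 989.8 in CD142+ cells. It was lower, at -0.55 ± 0.12 (adjusted p = 8.53e-05) and -0.58 ± 0.12 (adjusted p = 3.29e-05). Slc7a2 (ENSMUSG00000031596.15, chr8:40862396-40922308, plus strand), an inducible carrier of the same substrates whose mean of 99.7 lies just under the limit for named genes, rose from 27.8 in DPP4+ to 109.6 in ICAM1+ and 162 in CD142+ cells. Its differences were 1.98 ± 0.28 (3.94-fold, adjusted p = 7.08e-11) and 2.54 ± 0.28 (5.80-fold, adjusted p = 3.93e-18), the latter the largest called fold change of any transporter in CD142+ against DPP4+. Per kb, Slc7a1 still exceeded Slc7a2 everywhere, by 42.2 times in DPP4+, 7.30 times in ICAM1+ and 4.85 times in CD142+ cells. Of the exon bases of Slc7a2, 7.0% lie under a noncoding gene on the other strand with a mean of 8.02.

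Slc1a4, Slc7a7 and Slc7a11 are shown with their promoters because they hold the sequence TGATGNAA, the core of the element through which ATF4 acts, and because the first and second were lower outside DPP4+ cells while the third did not pass. RefSeq (GRCm38.p6) gave promoter windows of 250 bases before to 50 after a transcription start for 34 of the 49 transporters, among them 11 of the 16 that changed in at least 1 comparison. The core was searched on both strands. It stood in a window of 4 of the 34 transporters (11.8%), the fourth being Slc6a21, and in 4.51% of the 27025 genes with a window. Bases 200 before to 10 after the start are given, read 5′ to 3′ on the strand of the gene, the minus strand for each, with matches in capitals.
Slc1a4, chr11:20332704-20332913: {q.Slc1a4}
Slc7a7, chr14:54417935-54418144: {q.Slc7a7}
Slc7a11, chr3:50443604-50443813: {q.Slc7a11}
In Slc1a4 the match spans the start, on the opposite strand to the gene. In Slc7a7 a match begins 1 base before a RefSeq start that lies 164 bases upstream of the GENCODE start of the gene, and another begins 141 bases before the same RefSeq start. Slc7a11 holds 2 matches, 66 and 47 bases before its start. A match is a description of these letters and not of binding by a factor.

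The Slc6 family uses sodium and chloride to carry amino acids, their derivatives and amine transmitters. Slc6a6 (ENSMUSG00000030096.8, chr6:91684053-91759066, plus strand), the taurine carrier, had fitted levels of 698 in DPP4+, 416 in ICAM1+ and 380.0 in CD142+ cells. It was lower, at -0.75 ± 0.15 (adjusted p = 4.44e-06) and -0.88 ± 0.15 (adjusted p = 3.84e-08). Slc6a17 (ENSMUSG00000027894.14, chr3:107467543-107518018, minus strand), a carrier of neutral amino acids known from synaptic vesicles, stood at 88.2 in DPP4+, 195 in ICAM1+ and 73.9 in CD142+ cells. It was higher in ICAM1+ than in DPP4+ cells by 1.15 ± 0.28 (adjusted p = 0.000352) and than in CD142+ cells by 1.40 ± 0.28 (2.64-fold, adjusted p = 2.07e-05), while CD142+ and DPP4+ cells differed by -0.25 with an interval of -0.82 to 0.31. Slc6a8, the creatine carrier, with a mean of 666, passed nowhere, and its intervals against DPP4+ were -0.19 to 0.31 and -0.30 to 0.20. Slc6a9, a glycine carrier with a mean of 128, did not pass either, and 30.2% of its exon bases lie under exons on the other strand. Slc6a2, the noradrenaline carrier, passed in ICAM1+ against DPP4+ at -3.42 ± 1.06 (adjusted p = 0.00713), from fitted levels of only 15.3 and 1.43.

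The Slc43 family carries branched-chain and aromatic amino acids by facilitated diffusion, although Slc43a3 is known as a carrier of purine bases. Slc43a1 (ENSMUSG00000027075.16, chr2:84838850-84863594, plus strand) had fitted levels of 88.1 in DPP4+, 171 in ICAM1+ and 209.8 in CD142+ cells, and was higher by 0.96 ± 0.22 (adjusted p = 9.29e-05) and 1.25 ± 0.21 (adjusted p = 9.32e-08). Slc43a3 (ENSMUSG00000027074.14, chr2:84936579-84958509, plus strand) stood at 1516 in DPP4+, 1061 in ICAM1+ and 1654 in CD142+ cells. It was lower in ICAM1+ cells, at -0.51 ± 0.13 against DPP4+ (adjusted p = 0.000803) and at -0.64 ± 0.13 against CD142+ (adjusted p = 4.60e-05). Slc43a2, with a mean of 33.2, passed in ICAM1+ against DPP4+ at 1.29 ± 0.39 (adjusted p = 0.00552). A noncoding gene on the other strand with a mean of 5.33 covers 9.2% of its exon bases.

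The Slc36 family holds proton-coupled carriers of small amino acids. Its member with the highest mean, Slc36a4 (439), passed in no comparison, and its intervals were -0.53 to 0.04 for ICAM1+ and -0.17 to 0.39 for CD142+ against DPP4+. Slc36a1, a lysosomal carrier with a mean of 175, had intervals of -0.27 to 0.50 and -0.21 to 0.56. Slc36a2, known from brown adipocytes, had fitted levels of 2.31 in DPP4+, 31.2 in ICAM1+ and 9.88 in CD142+ cells. It was higher in ICAM1+ cells by 3.76 ± 0.80 (interval 2.20 to 5.31, adjusted p = 2.52e-05), and its difference in CD142+ cells was 2.10 ± 0.82 (adjusted p = 0.0538, or 0.0456 when adjusted over genes with means of 10 or more).

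**Figure D4:**
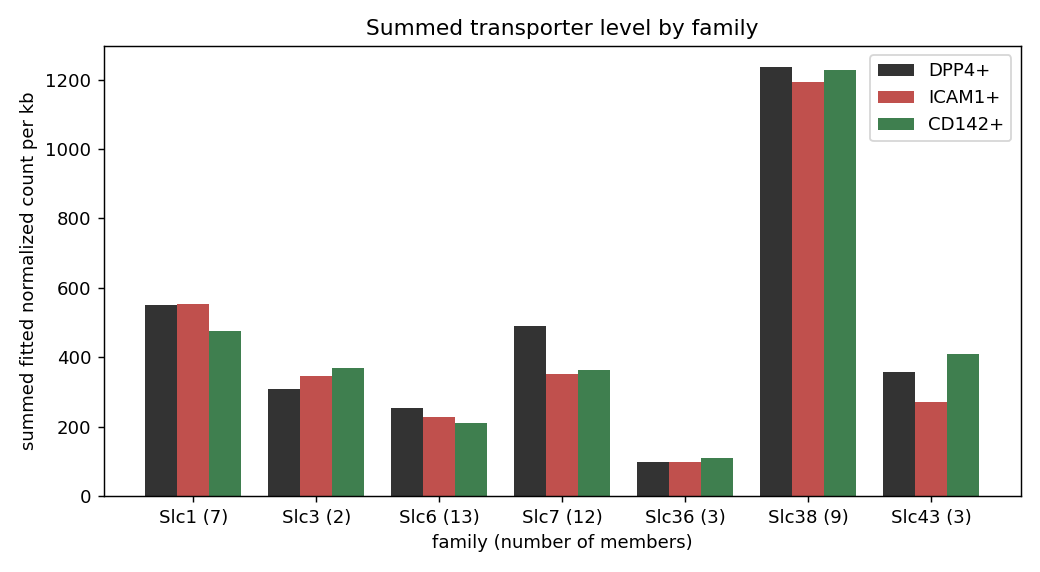
Summed fitted normalised count per kilobase of exon (y axis, no error available) of the members of each of the 7 families (x axis, number of members in parentheses) in DPP4+, ICAM1+ and CD142+ cells. The Slc38 family is highest in each population at 1193 to 1235, and the Slc7 sum is 489 in DPP4+ against 353 and 364 in ICAM1+ and CD142+ cells.

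Neighbouring transporter genes did not move alike. Of the members, 8 pairs lay within 500 kb of each other. Slc38a2 and Slc38a4, 295 kb apart on chromosome 15, changed in opposite directions in both comparisons against DPP4+. Slc43a1 and Slc43a3, 73.0 kb apart on chromosome 2, did so in ICAM1+ against DPP4+. Slc36a2 passed and Slc36a1, at 19.3 kb on chromosome 11, did not. Slc7a7 passed and Slc7a8, at 304 kb on chromosome 14, did not.

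Other genes of amino acid handling, from the lists kept for this purpose, changed in both directions. Of 33 genes induced through ATF4, 3 were higher and 7 lower in ICAM1+ than in DPP4+ cells, with a median log2 fold change of -0.12 (all genes: 12.4% higher, 12.0% lower), and 6 were higher and 2 lower in CD142+ cells, with a median of 0.07 (all genes: 10.1% and 8.91%). Between ICAM1+ and CD142+ cells 2 were higher and 5 lower, with a median of -0.11 (all genes: 3.77% and 5.28%). Gdf15, a secreted stress cytokine, was higher than in DPP4+ by 2.30 ± 0.23 in ICAM1+ and 1.41 ± 0.23 in CD142+ cells. Nupr1, a stress-induced chromatin protein, was lower, at -1.14 ± 0.14 and -0.87 ± 0.13. Vldlr, a lipoprotein receptor, was lower in ICAM1+ cells, at -1.03 ± 0.15 against DPP4+ and at -1.08 ± 0.15 against CD142+. Asns, which makes asparagine, was higher in ICAM1+ than in CD142+ cells by 0.78 ± 0.22. Cebpb, a transcription factor of early adipogenesis, was higher in CD142+ than in DPP4+ cells by 0.67 ± 0.15.

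Of 35 genes of amino acid sensing and mTORC1, 1 was higher and 4 lower in ICAM1+ than in DPP4+ cells, 3 were higher and 1 lower in CD142+ cells, and none passed between ICAM1+ and CD142+ cells, where 4 had an unadjusted p below 0.05. The shares changed against DPP4+ were 14.3% in ICAM1+ and 11.4% in CD142+ cells, below the 24.4% and 19.0% of all genes. Between ICAM1+ and CD142+ cells 9.05% of all genes passed. Sesn1, of the leucine-sensing sestrins, was lower, at -0.88 ± 0.20 and -0.61 ± 0.19. Of 37 enzymes of amino acid metabolism, 4 were higher and 6 lower in ICAM1+ and 3 higher and 6 lower in CD142+ than in DPP4+ cells, 27.0% and 24.3% of them beside the same 24.4% and 19.0% of all genes. Glud1, glutamate dehydrogenase, was lower, at -0.97 ± 0.11 and -0.64 ± 0.11, Glul, glutamine synthetase, at -0.67 ± 0.13 and -0.51 ± 0.13, and Bcat1, a branched-chain aminotransferase, at -1.22 ± 0.15 and -0.89 ± 0.14. Ckb, a creatine kinase, was lower, at -1.66 ± 0.13 and -1.35 ± 0.13, while Abat, which degrades the transmitter GABA, was higher by 1.65 ± 0.24 and 1.77 ± 0.24. Between ICAM1+ and CD142+ cells 2 enzymes were higher and 2 lower (11.1% of the 36 tested, beside 9.05% of all genes).

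Transporters of amino acids in other families, 19 tested, were higher in 4 and lower in 3 cases in ICAM1+ against DPP4+ cells. In CD142+ against DPP4+ cells 2 were higher and 4 lower. The shares changed were 36.8% and 31.6%, beside 24.4% and 19.0% of all genes. Between ICAM1+ and CD142+ cells 1 changed in each direction (10.5%, beside 9.05% of all genes). Slc16a10, a carrier of aromatic amino acids, was lower, at -0.79 ± 0.17 and -1.12 ± 0.17. Slc25a12, the mitochondrial aspartate and glutamate carrier, was lower in ICAM1+ cells, at -0.66 ± 0.21 against DPP4+ and at -0.72 ± 0.21 against CD142+.

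Markers of some other cell types were higher in ICAM1+ than in DPP4+ cells, and many adipocyte and mural markers also in CD142+ cells. Over all genes tested, 12.4% were higher and 12.0% lower in ICAM1+ than in DPP4+ cells, and 10.1% and 8.91% in CD142+ cells. The 10 adipocyte markers summed to a fitted level of 90.0 in DPP4+, 1195 in ICAM1+ and 374 in CD142+ cells. Of the 8 with an adjusted p, 5 were higher in ICAM1+ and 4 in CD142+ than in DPP4+ cells. The 12 mural cell markers summed to 3042, 11488 and 6864, with 7 higher and 1 lower in ICAM1+ and 6 higher in CD142+ cells. For the 10 Schwann cell markers the sums were 1420, 3013 and 1261, with 7 higher in ICAM1+ and 1 in CD142+ cells. The 12 endothelial markers summed to 5867, 5370 and 3462, with 7 higher and 1 lower in ICAM1+ cells, the lower one being Tek, and 1 lower in CD142+ cells. Of the 12 immune markers with an adjusted p, 1 was higher and 1 lower in CD142+ cells and 0 passed in ICAM1+ cells, where 4 had an unadjusted p below 0.05. Of 5 erythroid markers 0 passed in either, with 0 at an unadjusted p below 0.05. The 7 stromal markers, among them Pdgfra, Cd34 and Col1a1, had means from 1446 upward and summed to 574873 in DPP4+, 351459 in ICAM1+ and 592574 in CD142+ cells, with 2 higher and 4 lower in ICAM1+ and 2 higher and 2 lower in CD142+ than in DPP4+ cells. In ICAM1+ against CD142+ cells, 4 of 8 adipocyte, 8 of 12 mural, 7 of 12 endothelial, 7 of 10 Schwann and 1 of 12 immune markers were higher. There 2 mural and 4 of 7 stromal markers were lower, and 0 of 5 erythroid markers passed. Over all genes tested in that comparison, 3.77% were higher and 5.28% lower. No marker of these lists had a mean of 0, the lowest mean being 1.0. The part of such cells in the values of Slc1a3, Slc6a17, Slc36a2 and the other transporters was not tested, and in sorted bulk RNA fewer cells of a type and less RNA per cell cannot be told apart.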

How the data were processed

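Bulk RNA sequencing of 9 libraries, 3 for each sorted population, was analysed. The submitters' processing notes name mm10 as the build, STAR 2.5.2a, R 3.5.1 and DESeq2 without its version. They give neither the annotation nor the strand counted. The authors deposited 3 tables of pairwise comparisons with 20659 rows, 4 of them summary classes of STAR that hold 59.6% of the summed means and were left out of all counts here. The mean is a signal made by the authors, read counts divided by size factors and averaged over all libraries. The log2 fold changes and their SEs come from the DESeq2 fit of the authors. Deposited beside them are a score, the Wald statistic, and the authors' p-values, raw and Benjamini-Hochberg adjusted. These columns are the authors' own comparisons, so the test is theirs, no count model was fitted here and replicate spread enters only through the SE. Empty adjusted p-values (4, 4 and 11 transporters) were kept empty.

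Identifiers were matched without version to GENCODE M21 (GRCm38), which named 20618 of 20655 genes. The 95% interval is the log2 fold change ± 1.96 SE. Fitted levels solve the mean and both fold changes against DPP4+, and levels per kb divide by the union of exons. The depth of each library is unknown. Genes named were transporters with a mean of at least 100 that passed in at least 1 comparison, the member with the highest mean of a family with none, those with a mean of at least 1000, up to 4 changed members per other list and comparison with a mean of at least 100, and the sort markers. Members and lists were chosen with earlier results of these data known. Some values are not reported here. The test functions were tested on simulated data. Python 3.11.15, pandas 2.3.3, numpy 2.4.6, scipy 1.17.1 and matplotlib 3.10.9 were used.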

Additional observations from a re-analysis of the deposited data

How the results depend on the processing

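Counts of changed transporters were recomputed under 8 alternatives for each comparison. In ICAM1+ against DPP4+ the count of 15 became 9 when p was adjusted over genes with means of 100 or more, since 6 of the 15 lie below that limit. Of all genes adjusted in this way, 39.9% passed. The count became 3 under the Wald test of a change beyond 1 log2 unit, which 3.30% of all genes passed. In CD142+ against DPP4+ the count of 11 became 6 where a change of over 1 log2 unit was required (9.86% of all genes). It became 2 under the test of a change beyond 1 (2.66% of all genes). In ICAM1+ against CD142+ the count of 2 became 4 at an adjusted p below 0.1 (11.7% of all genes). It became 1 where over 1 log2 unit was required (3.5% of all genes). It became 0 under the Wald test of a change beyond 1, which only 0.32% of all genes passed. In that test 0 transporters had an unadjusted p below 0.05. All other counts stayed within 1.5 times. Only centring on the median alters a fold change, and it turned the direction of none of the 20 transporters followed singly. The other alternatives keep the deposited fold change, so its direction could not turn there. The medians used for centring, over genes of means from 100 upward, were -0.07, -0.05 and -0.02. No paired analysis was possible because the tables hold no values per library, and for the same reason leaving out single libraries was not run. Precision is limited to the deposited SE, and levels have none.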
